A study of Mus musculus with 12 samples.

Results

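The genes described here are 10 genes of the smooth muscle contractile apparatus, *Acta2*, *Actg2*, *Tagln*, *Myh11*, *Cnn1*, *Lmod1*, *Mylk*, *Smtn*, *Myl9* and *Myocd*, in RNA-sequencing of the mouse left atrium (LA). They were taken by name, and all 10 were among the 54658 gene names of the count table. The libraries came from 6 control mice carrying *αMHC-rtTA* and 6 littermate iNICD mice carrying *αMHC-rtTA* and *tetO_NICD*, on a mixed genetic background. iNICD mice express the intracellular domain of Notch when doxycycline is given, and the *αMHC* promoter directs the transactivator to cardiomyocytes, so that induction was not aimed at smooth muscle cells. Both groups were 2 to 3 months old when they began 3 weeks of doxycycline chow, and tissue was taken without washout. Each LA was its own library, from 4 females and 2 males in the control group and 3 females and 3 males in the iNICD group.

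Vascular smooth muscle cells of coronary arteries and atrial veins contract when myosin light chain kinase phosphorylates the regulatory light chain of myosin, which then pulls on actin filaments of the smooth muscle type. Myocardin, bound to serum response factor (SRF), drives transcription of most of these genes through a short promoter element called the CArG box. In vessel walls, Notch receptors on smooth muscle cells receive signals from neighbouring cells, and their nuclear partner RBPJ binds DNA at the core TGGGAA. Several of the genes are not restricted to smooth muscle. *Myocd* is also expressed in cardiomyocytes, and *Acta2*, *Tagln*, *Cnn1* and *Myl9* in other contractile or injured cells, so levels in whole LA tissue mix several cell types.

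Promoter sequence from RefSeq (GRCm38.p6) was available here for 6 of the 10 genes, *Acta2*, *Cnn1*, *Lmod1*, *Mylk*, *Smtn* and *Myl9*, as windows of 300 bases around the start site. *Actg2*, *Tagln*, *Myh11* and *Myocd* were not among the matches. Of the 6 matched genes, 4 are shown because they span the range from paired CArG-like elements to none, with the CArG-like stretches and TGGGAA in capitals. The first Acta2 line lies at chr19:34255438-34255467 and the second at chr19:34255386-34255415, both on the minus strand. Myl9 covers chr2:156775214-156775419, Lmod1 chr1:135324563-135324806 and Cnn1 chr9:22099003-22099215, all on the plus strand.
Acta2 first stretch: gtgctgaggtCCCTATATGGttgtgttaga
Acta2 second stretch: tctttgctCCTTGTTTGGGAAgcgagtggg
Myl9: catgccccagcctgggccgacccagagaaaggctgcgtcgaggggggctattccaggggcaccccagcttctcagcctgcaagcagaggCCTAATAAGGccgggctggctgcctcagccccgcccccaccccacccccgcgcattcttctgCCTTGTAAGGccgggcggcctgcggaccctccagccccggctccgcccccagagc
Lmod1: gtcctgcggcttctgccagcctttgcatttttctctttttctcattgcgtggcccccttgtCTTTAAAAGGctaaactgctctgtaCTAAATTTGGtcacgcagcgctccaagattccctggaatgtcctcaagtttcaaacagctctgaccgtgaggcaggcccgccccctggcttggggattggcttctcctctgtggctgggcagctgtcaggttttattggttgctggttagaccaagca
Cnn1: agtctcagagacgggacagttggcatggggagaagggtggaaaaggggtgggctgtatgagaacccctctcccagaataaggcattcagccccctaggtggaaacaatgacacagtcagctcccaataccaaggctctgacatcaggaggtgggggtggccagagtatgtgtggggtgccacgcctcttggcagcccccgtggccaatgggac

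The first capital stretch of *Myl9* was an exact CArG box, which 1.63% of all 32851 promoter windows held on either strand. The other capital stretches of *Acta2*, *Myl9* and *Lmod1* were CArG boxes with 1 mismatch, and 21.1% of all windows held a box with at most 1 mismatch. TGGGAA occurred on either strand in 25.6% of all windows. Among the genes it was found in the second *Acta2* stretch, where it overlaps the CArG-like element, and in the *Smtn* window. The *Cnn1* and *Mylk* windows held neither motif. These matches describe letters in a short window and do not show binding.

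The depth, as counted reads, ran from 21432632 to 27182038 per library. *Notch1*, part of which the transgene encodes, averaged 118 ± 10 normalized CPM (SD) over the 6 controls and 3408 ± 441 over the 6 iNICD libraries, with no overlap. Normalized CPM are counts per 1e+06 reads after scaling each library by the TMM method. Control 5, a male, had a TMM factor of 0.863, the lowest of the 12, and earlier results of these data had shown high smooth muscle markers in it. Comparisons of the 10 genes and of the lists are therefore given with all 12 libraries and with the 11 that remain without control 5. The cardiomyocyte markers of the LA were present in every library, with a sum over 10 genes of 74854 to 92722 normalized CPM in control and 62403 to 74667 in iNICD libraries. The lowest control and the highest iNICD library nearly touched. The labels call the libraries of a group biological replicates.

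No smooth muscle contractile gene passed the test between iNICD and control LA. With all 12 libraries, 0 of the 9 genes tested passed an adjusted p of 0.05 in either direction in edgeR's quasi-likelihood test. Of all 13541 genes tested, 4.12% did (2.78% higher and 1.34% lower). Without control 5 the count was again 0 of 9, against 5.95% of 13651 genes (3.69% higher and 2.26% lower). At an unadjusted p under 0.05, 1 of the 9 genes, *Myocd*, passed in either set, against 17.4% of all genes with 12 libraries and 19.4% with 11. DESeq2 called *Myocd* higher with 12 libraries and no member with 11, where it called 7.84% and 9.82% of all genes, 4.55% and 5.70% in the higher direction. The exact test of edgeR called no member in either set, against 5.69% and 7.41% of all genes. The median log2 fold change of the 9 genes was -0.07 with 12 libraries and 0.09 without control 5, beside medians of -0.01 and -0.00034 over all genes tested. Control and iNICD libraries overlapped for each of the 10 genes, and 3.83% of all tested genes had separate groups with 12 libraries and 5.44% with 11. At shares this low, counts of 0 among 9 or 10 genes do not set these genes apart from other genes. In RNA from whole tissue, fewer cells of a type and less RNA per cell cannot be told apart.

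**Figure D1:**
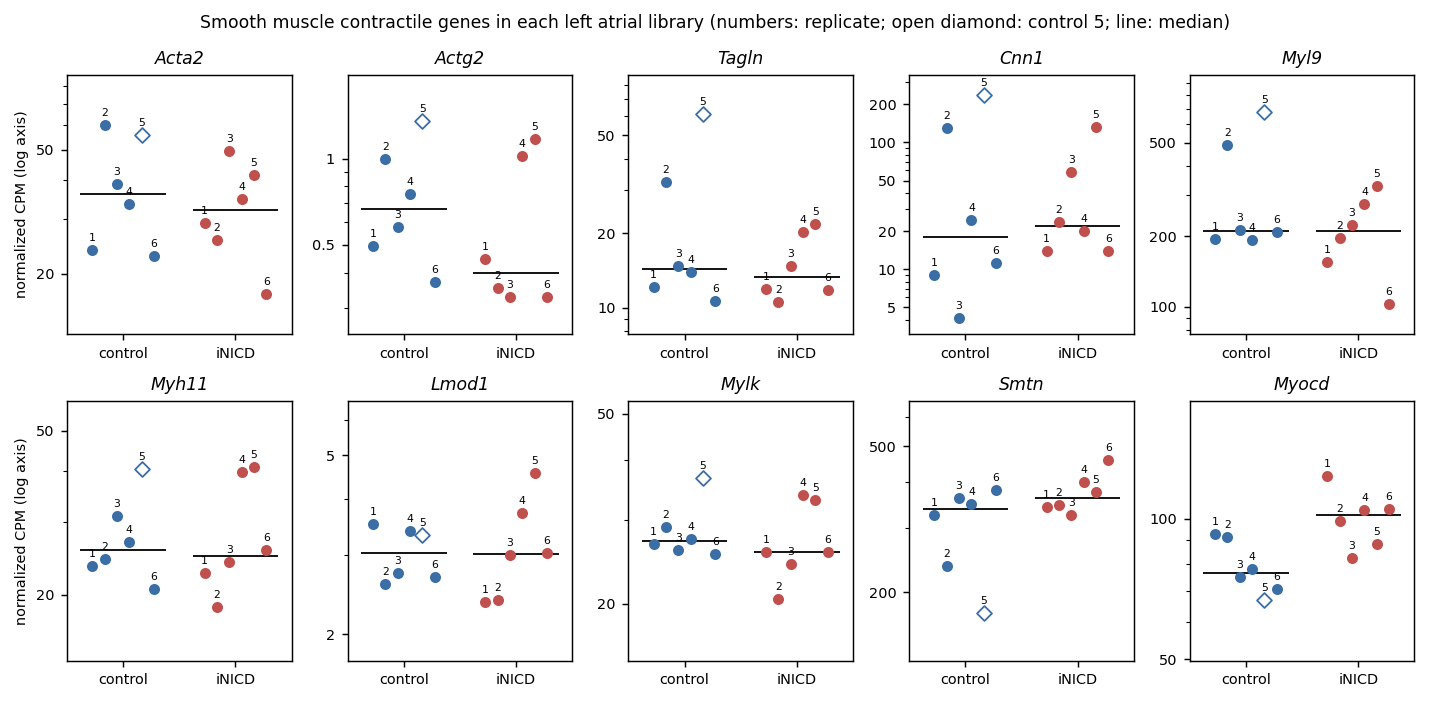
Normalized CPM of the 10 genes in each library on log axes, with replicate numbers beside the points, a line at each group's median and an open diamond for control 5. Controls 2 and 5 hold the 2 highest values of the 12 libraries for *Acta2*, *Tagln* and *Myl9*, and the groups overlap in all 10 panels.

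*Acta2* (chr19:34241090-34255590), which encodes the alpha actin of vascular smooth muscle, was measured with 420 to 1632 reads per library. Its normalized CPM in controls 1 to 6 were 23.8, 60.2, 38.8, 33.6, 56.0 and 22.8, and in iNICD 1 to 6 they were 29.2, 25.8, 49.5, 34.8, 41.5 and 17.2. Controls 2 and 5 were the highest of all libraries, and the lowest was iNICD 6. Its log2 fold change was -0.25 (standard error 0.29, 95% interval -0.87 to 0.37, edgeR adjusted p = 0.697), and it was -0.12 without control 5 (edgeR adjusted p = 0.876). A change of the group mean between 0.547-fold and 1.30-fold is within that interval.

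*Actg2* (chr6:83512905-83536265), the gamma actin best known from visceral smooth muscle, was close to the detection limit. It had 8 to 29 reads per library, or 0.328 to 1.36 normalized CPM, and did not pass the filter on low counts. Control 5 was the highest library and 3 iNICD libraries lay below all controls. In a fit without that filter its log2 fold change was -0.32 (edgeR adjusted p = 0.745), and -0.08 without control 5. Small differences cannot be seen at this depth, and actins are closely related proteins, so some of its reads may fit other actin genes as well.

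*Tagln* (chr9:45929619-45936058), encoding the actin-bundling protein transgelin (SM22 alpha), was high in 2 controls. In the controls its normalized CPM were 12.1, 32.3, 14.7, 14, 60.9 and 10.6, and in the iNICD libraries 11.9, 10.5, 14.8, 20.3, 21.8 and 11.8. Control 5 lay at 3.64 times the mean of the other 5 controls, and control 2 was the second highest of the 12. With 12 libraries the log2 fold change was -0.67 (standard error 0.42, 95% interval -1.57 to 0.24, edgeR adjusted p = 0.439). Without control 5 it was -0.15 (standard error 0.29, 95% interval -0.78 to 0.49, edgeR adjusted p = 0.850). When control 2 was left out as well, it was 0.24.

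*Cnn1* (chr9:22099216-22109630) encodes calponin, which binds actin and restrains the myosin ATPase, and it had the widest spread of the 10 genes. In controls 1 to 6 the normalized CPM were 9.06, 130, 4.14, 24.6, 236 and 11.1, a 57.0-fold range within the group. In iNICD 1 to 6 they were 13.9, 23.4, 58.1, 20.1, 133 and 13.9, a 9.57-fold range. Control 5 was highest, iNICD 5 and control 2 followed, and the lowest value was also a control. The log2 fold change was -0.66 (standard error 0.94, 95% interval -2.69 to 1.36, edgeR adjusted p = 0.755), and it was 0.28 without control 5 (95% interval -1.61 to 2.17, edgeR adjusted p = 0.909). The sign of the difference turned with control 5. Among the 11 libraries it turned again, to -0.48, without iNICD 5, and was 1.83 without control 2.

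*Smtn* (chr11:3517523-3540612), which encodes the filament-associated protein smoothelin, was low in controls 2 and 5, where *Tagln* and *Cnn1* were high, but not in iNICD 5, where *Cnn1* was high too. Its normalized CPM in the controls were 324, 236, 361, 348, 176 and 379, and in the iNICD libraries 341, 346, 324, 399, 376 and 458. Controls 5 and 2 were the lowest of the 12, and 2 iNICD libraries lay above all controls. For iNICD against control the log2 fold change was 0.30 (standard error 0.17, 95% interval -0.07 to 0.67, edgeR adjusted p = 0.391), and without control 5 it was 0.18 (edgeR adjusted p = 0.476).

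*Lmod1* (chr1:135324807-135368065), leiomodin 1, nucleates actin filaments in smooth muscle and was read 54 to 109 times per library. Its normalized CPM ranged from 2.58 to 3.52 in the controls (median 3.03) and from 2.36 to 4.56 in the iNICD libraries (median 3.01). The extremes on both sides were iNICD libraries, with 2 above and 2 below all controls. Its log2 fold change was 0.06 (standard error 0.18, 95% interval -0.33 to 0.45, edgeR adjusted p = 0.889) and 0.09 without control 5.

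*Myh11*, *Myl9* and *Mylk* encode the motor and its switch. *Myh11* (chr16:14194535-14291372), the smooth muscle myosin heavy chain and a defining marker of these cells, had normalized CPM of 23.5, 24.4, 31.1, 26.8, 40.4 and 20.7 in the controls. In the iNICD libraries it was at 22.5, 18.7, 24.0, 39.7, 40.8 and 25.7. Control 5 and the male iNICD 4 and 5 formed the upper end, at nearly the same level. The log2 fold change was 0.04 (standard error 0.21, 95% interval -0.42 to 0.50, edgeR adjusted p = 0.948), and 0.17 without control 5 (edgeR adjusted p = 0.715).

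*Myl9* (chr2:156775420-156781658), the regulatory myosin light chain that the kinase phosphorylates, had the pattern of *Tagln*. Its normalized CPM were 196, 492, 213, 193, 675 and 208 in the controls and 156, 196, 223, 273, 328 and 103 in the iNICD libraries. The medians were alike, 211 in the controls and 210 in the iNICD libraries, while the means were 330 ± 205 and 213 ± 80.8 (SD over 6 libraries each). Its log2 fold change was -0.63 (standard error 0.37, 95% interval -1.43 to 0.17, edgeR adjusted p = 0.409). Without control 5 it was -0.29 (standard error 0.31, 95% interval -0.97 to 0.39, edgeR adjusted p = 0.694), and without controls 5 and 2 it was 0.07.

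*Mylk* (chr16:34745210-35002420), which encodes the myosin light chain kinase, was the steadiest of the motor genes. Its normalized CPM were 26.7, 29, 26, 27.3, 36.7 and 25.5 in the controls and 25.6, 20.5, 24.2, 33.8, 33.1 and 25.7 in the iNICD libraries. As for *Myh11*, control 5 and iNICD 4 and 5 were the highest. The log2 fold change was -0.07 (standard error 0.13, 95% interval -0.35 to 0.21, edgeR adjusted p = 0.821) and 0.01 without control 5. The interval of the 12 libraries corresponds to 0.783-fold to 1.16-fold.

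*Myocd* (chr11:65176561-65269989), the coactivator of SRF, came closest to the threshold. Its normalized CPM were 92.7, 91.4, 75.0, 78.1, 67.0 and 70.8 in the controls and 124, 99.1, 82.3, 104, 88.2 and 105 in the iNICD libraries. In 4 of 6 iNICD libraries it was above all controls, and control 5 was the lowest library. The log2 fold change was 0.34 (standard error 0.11, 95% interval 0.11 to 0.58), with an unadjusted p of 0.00778 and an adjusted p of 0.11 in edgeR's test. A two-sided exact permutation of the libraries gave p = 0.0152. Without control 5 the log2 fold change was 0.30 (standard error 0.11, edgeR adjusted p = 0.136, exact permutation p = 0.0346). DESeq2 put the adjusted p at 0.0480 with 12 libraries. Over the other tools, normalizations, filters, covariates, blocks and single sexes, its adjusted p ran from 0.0480 to 0.586 with 12 libraries and from 0.0714 to 0.203 with 11. The other genes had exact permutation p of 0.121 or more with 12 libraries and 0.223 or more with 11.

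**Figure D2:**
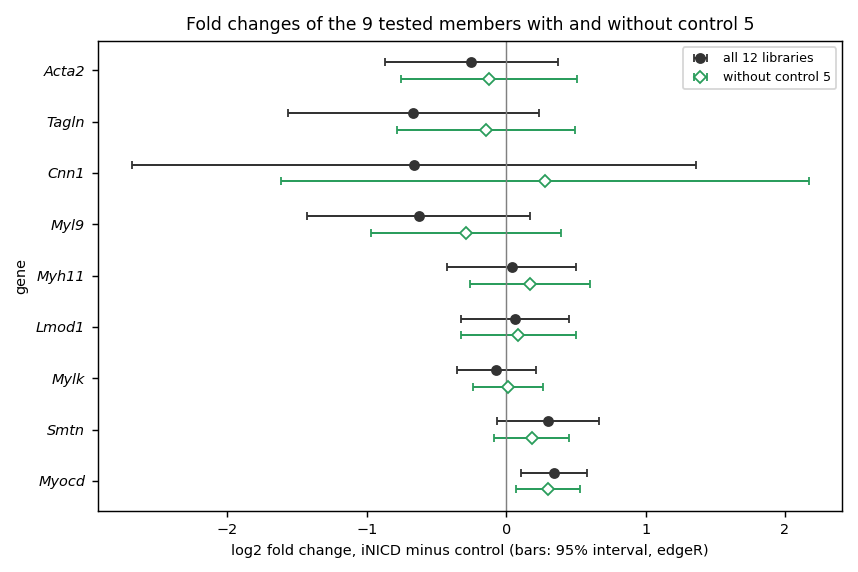
Log2 fold change of iNICD against control for the 9 tested genes on a linear axis, with 95% intervals from edgeR, for all 12 libraries (filled circles) and without control 5 (open diamonds). The interval of *Myocd* alone excludes 0, *Cnn1* has the widest interval, and the estimates of *Tagln*, *Cnn1* and *Myl9* move most when control 5 is left out.

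Library to library, the genes did not vary as one block. Control 5 was at 6.57 times the mean of the other 5 controls for *Cnn1*, at 3.64 times for *Tagln*, at 2.59 times for *Myl9* and at 2.13 times for *Actg2*. It was at 1.60 times for *Myh11*, 1.56 times for *Acta2*, 1.37 times for *Mylk* and 1.11 times for *Lmod1*, and below the other controls for *Myocd* (0.821 times) and *Smtn* (0.533 times). Of the 9 tested genes, 3 were at least 2-fold above the mean log2 level of the other controls there, as were 4.92% of all tested genes, and 4 were at their highest of the 12 libraries there, as were 26.6% of all. Because this library was singled out for its smooth muscle markers, these counts only describe it. The summed level of the 10 genes was 1352 normalized CPM in control 5, 712 to 1099 in the other controls and 727 to 1067 in the iNICD libraries, with *Smtn* and *Myl9* making up most of it.

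**Figure D3:**
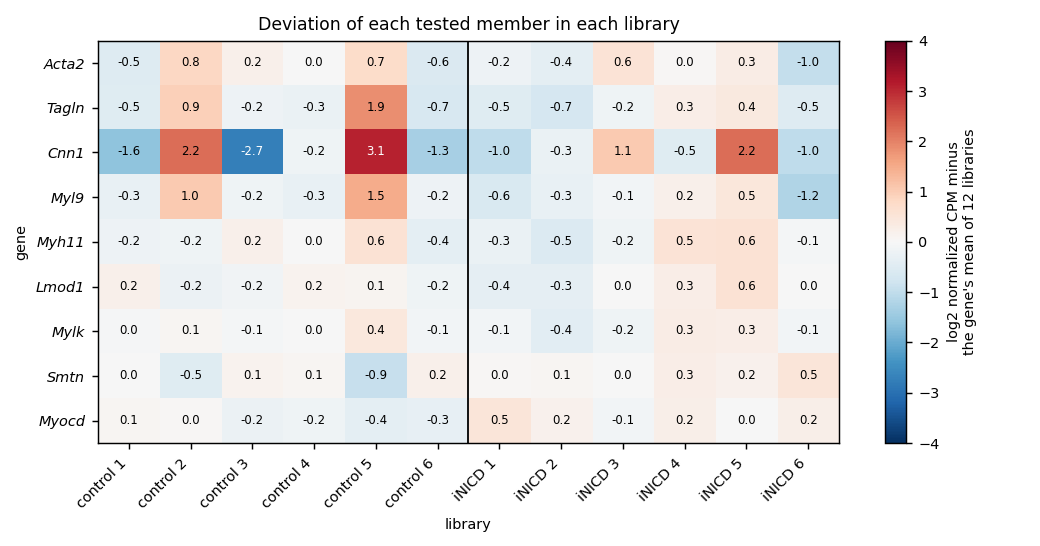
Log2 normalized CPM of each tested gene in each library minus the gene's mean over the 12 libraries, as a colour scale with the value printed in each cell and a vertical line between the groups. Control 2, control 5 and iNICD 5 are high for *Acta2*, *Tagln*, *Cnn1* and *Myl9*, while *Smtn* is lowest in controls 5 and 2.

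Within groups, over the 12 libraries and with group means removed, *Tagln*, *Myl9* and *Cnn1* followed the mean of the 9 tested genes most closely (Pearson r = 0.948, 0.933 and 0.927). *Myh11* and *Mylk* formed the closest pair (r = 0.912 with 12 libraries and 0.882 with 11), followed by *Tagln* and *Myl9* (r = 0.908 and 0.860). *Smtn* ran against the mean (r = -0.743, and -0.558 without control 5), and *Myocd* was weakly related to it (r = -0.337 and -0.145). These values share their libraries, depth and normalization, and each gene is itself part of the mean, so they are descriptions.

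Of all other tested genes, *Actc1*, the cardiac alpha actin of the sarcomere, had the pattern most like that mean, both over 12 libraries (r = 0.978) and over 11 (r = 0.974). *Actc1* was at 21932 normalized CPM in control 5, 15142 in control 2 and 7484 to 8946 in the other 4 controls, and at 5912 to 11560 in the iNICD libraries. Its log2 fold change was -0.46 (edgeR adjusted p = 0.435), and -0.17 without control 5 (edgeR adjusted p = 0.745). The next genes over 12 libraries were *Gm11627* (r = 0.967), *Prkar2a* (r = 0.966), *Pdlim7* (r = 0.965) and *Exosc3* (r = 0.958). Over 11 libraries they were *Ube2d3* (r = 0.969), *Kcmf1* (r = 0.965), *Pdlim7* (r = 0.959) and *Prkar2a* (r = 0.952). *Pdlim7* encodes a protein of actin filament anchors and *Prkar2a* a regulatory subunit of protein kinase A. *Actc1* is listed among the cardiomyocyte markers, and reads that fit several actin genes would be left out where only uniquely aligned reads were counted.

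**Figure D4:**
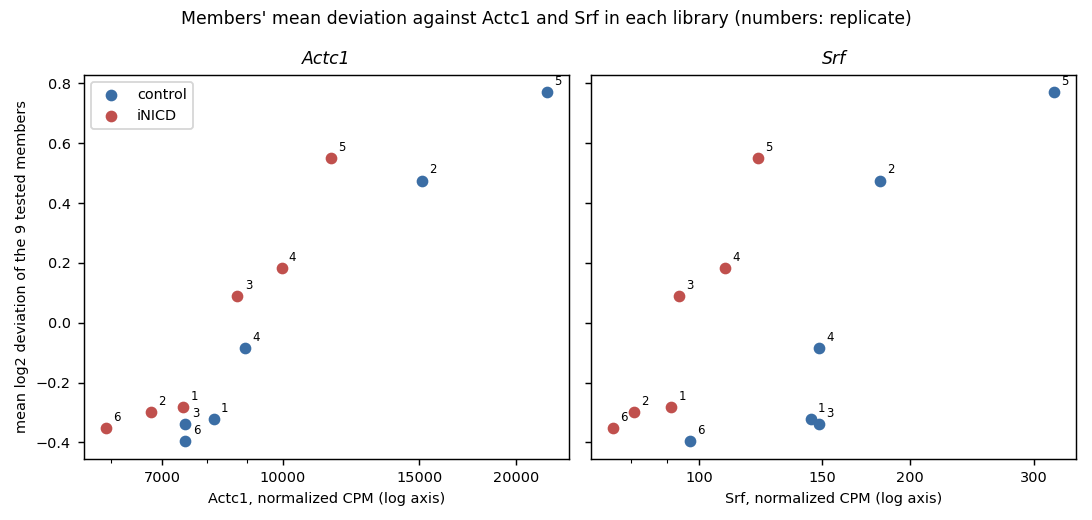
Mean log2 deviation of the 9 tested genes in each library against the normalized CPM of *Actc1* (left) and *Srf* (right), both on log axes, with replicate numbers beside the points. Control 5 is highest on every axis, controls and iNICD libraries lie along one band for *Actc1*, and for *Srf* 4 of 6 iNICD libraries lie below all controls.

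Per kilobase of the length in the deposited table, control levels descended from *Myl9* at 284 ± 177 normalized CPM per kilobase (SD, n = 6) through *Smtn* at 69.4 ± 18.4, *Cnn1* at 25.3 ± 34.5 and *Acta2* at 22.0 ± 8.92. *Myocd* at 12.3 ± 1.66, *Tagln* at 12.1 ± 9.90, *Myh11* at 3.66 ± 0.934 and *Mylk* at 2.53 ± 0.373 followed. *Lmod1* at 0.770 ± 0.106 and *Actg2* at 0.487 ± 0.235 were lowest. *Myl9* was above *Smtn*, *Tagln* above *Myh11* and *Mylk* above *Lmod1* in all control libraries. The ranges of the other neighbours overlapped. The place of *Cnn1* rests on controls 5 and 2. Without control 5 it was at 13.1 ± 19.5 per kilobase (SD, n = 5), below *Acta2* at 20.1 ± 8.53, and *Tagln* was at 8.42 ± 4.45. Control 2 held 130 normalized CPM of *Cnn1*. The median of *Cnn1* over the 6 controls was 6.52 per kilobase, below the medians of *Myocd* at 11.9 and *Tagln* at 7.21.

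The wider contractile apparatus, a list of 26 genes that includes tropomyosins, filamin, desmin and the PDZ-LIM anchors, also held no called gene in either set, where edgeR called 4.12% of all genes with 12 libraries and 5.95% with 11. With 12 libraries 23 of 26 had a negative log2 fold change and the median was -0.28, and without control 5 the figures were 14 of 26 and -0.03. The unadjusted p was under 0.05 for 7 genes with 12 libraries and 6 with 11, beside 17.4% and 19.4% of all genes. DESeq2 called 1 higher and 1 lower with 12 libraries and 2 higher and 1 lower with 11, beside 7.84% and 9.82% of all genes. With 12 libraries the largest differences were those of *Fhl1*, a LIM-domain protein of the sarcomere (log2 fold change -1.33, edgeR adjusted p = 0.358), *Actn1*, the non-sarcomeric alpha actinin (-0.82, adjusted p = 0.433), and *Tgfb1i1*, a focal adhesion adaptor (-0.75, adjusted p = 0.290). Without control 5 they were -0.46, -0.05 and -0.37, and the largest were then those of *Csrp2* (-0.49, adjusted p = 0.0753), *Fhl1* and *Tpm1* (0.45, adjusted p = 0.104). *Fhl1* stood at 3833 normalized CPM in control 5 and 236 to 2013 in the other controls.

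Among genes listed for smooth muscle tone, calls were made in the higher direction. RNA of whole LA tissue does not show which cells the reads of these genes came from. Of 22 tested genes of the list on tone and calcium sensitization, 3 rose and 0 fell in iNICD LA with either set of libraries, where 2.78% of all genes rose with 12 libraries and 3.69% with 11. *Gucy1b1*, the beta subunit of the nitric oxide receptor, rose from 54.7 ± 10.3 to 188 ± 26.7 normalized CPM (SD over 6 libraries each; by 1.78 on the log2 scale, standard error 0.13, edgeR adjusted p = 3.16e-06). *Prkg1*, the cyclic GMP-dependent kinase, rose from 6.45 ± 1.4 to 15.8 ± 2.71 (by 1.30 on the log2 scale, standard error 0.15, edgeR adjusted p = 2.58e-04). *Mrvi1*, a substrate of that kinase on the calcium store, rose from 140 ± 78.9 to 335 ± 45.1 (by 1.26 on the log2 scale, standard error 0.31, edgeR adjusted p = 0.0372, and 1.11 without control 5). Without control 5 the values of *Gucy1b1* and *Prkg1* were 1.76 and 1.30. For these 3 genes all iNICD libraries were above all controls, where 3.83% of all genes had separate groups with 12 libraries and 5.44% with 11. *Gucy1a1*, the alpha subunit of the same receptor, named after its value was seen, had no call (0.24, adjusted p = 0.610, and 0.07 without control 5). DESeq2 called 3 genes of the list higher with 12 libraries and 4 with 11, beside 4.55% and 5.70% of all genes, and none lower. The unadjusted p in edgeR was under 0.05 for 4 and 6 of the 22, beside 17.4% and 19.4% of all genes. Over the whole list the median log2 fold change was 0.07 with 12 libraries and 0.14 with 11.

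**Figure D5:**
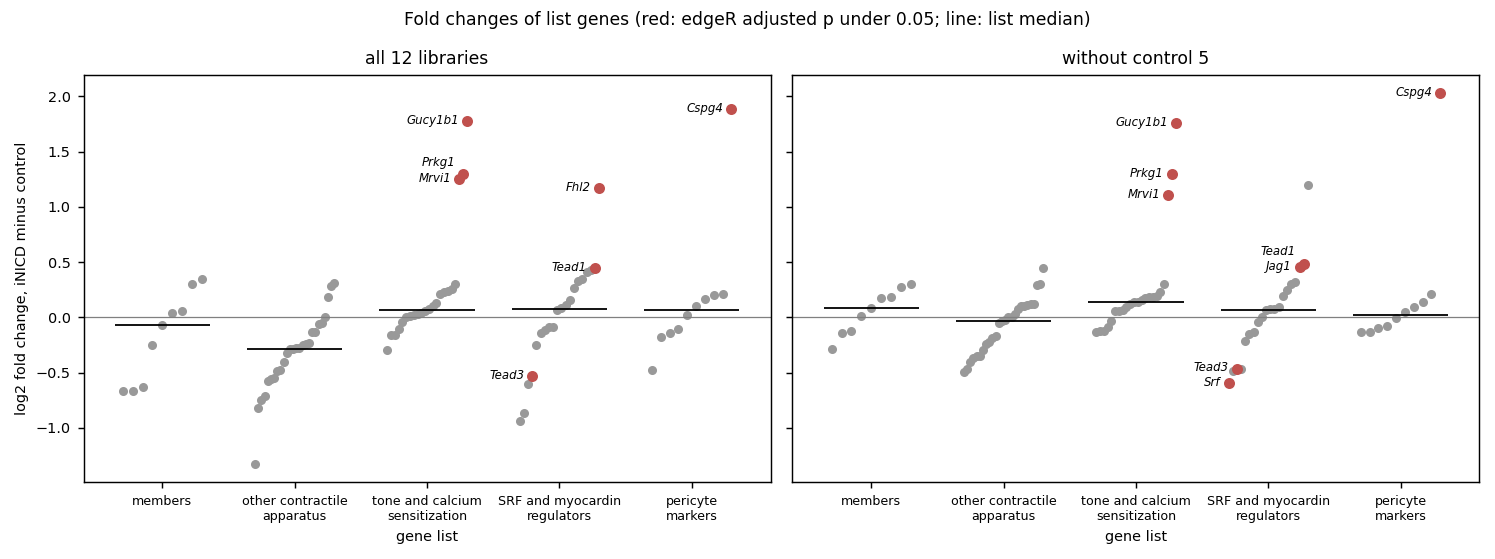
Log2 fold changes of the tested genes of 5 lists with all 12 libraries (left) and without control 5 (right), sorted within each list, with a line at the list's median and called genes in red and named. None of the 9 members or of the 26 other contractile genes is red in either panel, and the median of the other contractile genes moves from -0.28 to -0.03.

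Among 20 tested regulators of SRF and myocardin, a list that includes *Myocd* itself, 2 rose and 1 fell with 12 libraries, beside 2.78% and 1.34% of all genes, and 2 rose and 2 fell with 11, beside 3.69% and 2.26%. DESeq2 called 4 higher and 2 lower with 12 libraries and 3 higher and 2 lower with 11, beside 7.84% and 9.82% of all genes called. *Tead1*, a transcription factor that can act with SRF, rose from 256 ± 30.2 to 350 ± 34.5 normalized CPM (a change of 0.45 on the log2 scale, edgeR adjusted p = 0.0131), and *Tead3* fell from 37.6 ± 4.76 to 26 ± 3.49 (-0.53, adjusted p = 0.0112), both without overlap in either set. Of all genes, 3.83% had separate groups with 12 libraries and 5.44% with 11. Without control 5 *Tead1* and *Tead3* were at 0.48 and -0.47. *Fhl2*, a LIM-domain cofactor of SRF, rose with 12 libraries (log2 fold change 1.17, edgeR adjusted p = 0.0461) and missed the threshold with 11 (1.20, adjusted p = 0.0508). *Jag1*, a Notch ligand, was at 0.42 (adjusted p = 0.0549) with 12 libraries and rose by 0.45 (adjusted p = 0.0391) with 11. *Srf* itself was at 173 ± 77.2 in control and 95.3 ± 17.3 in iNICD libraries. Its log2 fold change was -0.86 (standard error 0.24, edgeR adjusted p = 0.0629) with 12 libraries, and it fell by 0.59 without control 5 (edgeR adjusted p = 0.0398). Control 5 held 321 normalized CPM of *Srf* and the other controls 97.0 to 181. The unadjusted p was under 0.05 for 10 of the 20 genes with 12 libraries and 9 with 11, beside 17.4% and 19.4% of all genes.

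Paralogs of the 10 genes that striated muscle or other cells use were mostly without a call as well. Of 21 tested, 1 rose and 2 fell in either set, where 2.78% and 1.34% of all genes did with 12 libraries and 3.69% and 2.26% with 11. *Smtnl2*, a smoothelin-like gene, rose from 45.9 ± 17.1 to 106 ± 23.2 normalized CPM (log2 fold change 1.21, edgeR adjusted p = 0.0159). *Actg1*, a cytoplasmic actin, fell from 10.9 ± 6.54 to 2.73 ± 0.841 (log2 fold change -1.99, edgeR adjusted p = 0.0183), and *Myl7*, the atrial regulatory light chain, fell by 0.54 (adjusted p = 0.0367). Without control 5 the log2 fold changes of these 3 genes were 1.05, -1.89 and -0.58. The share of *Actg1* reads that also fit related actin genes was not measured here. *Actb*, the other cytoplasmic actin, was at 298 to 863 normalized CPM in the controls and had a log2 fold change of -0.47 (adjusted p = 0.269), and -0.28 without control 5. *Acta1*, the skeletal actin, spread from 0.496 to 17.6 in control and from 1.07 to 21.9 in iNICD libraries (log2 fold change 0.87, adjusted p = 0.678). Control 5 was the highest control, and without it the value was 1.86 (adjusted p = 0.300). The coactivators related to *Myocd*, *Mkl1* and *Mkl2*, had log2 fold changes of -0.09 (adjusted p = 0.707) and 0.41 (adjusted p = 0.163), and -0.04 and 0.32 without control 5. *Tagln2*, *Cnn2* and *Myh9*, the forms of *Tagln*, *Cnn1* and *Myh11* outside smooth muscle, were at -0.40, -0.65 and -0.42 with 12 libraries (adjusted p = 0.460, 0.254 and 0.372) and at -0.12, -0.34 and -0.11 without control 5. For *Cnn3* (-0.19), *Myh10* (-0.07), *Mylk3* (-0.04), *Lmod2* (0.03), *Myl12a* (-0.0026) and *Myl12b* (-0.35) the log2 fold changes with 12 libraries were also without a call, and without control 5 they were -0.12, -0.06, -0.17, -0.02, 0.12 and -0.39. The unadjusted p was under 0.05 for 7 of the 21 paralogs in either set, beside 17.4% and 19.4% of all genes, and DESeq2 called 1 higher and 2 lower with 12 libraries and 1 higher and 4 lower with 11, beside 7.84% and 9.82% of all genes. *Mylk4* and *Lmod3*, named after their values were seen, had log2 fold changes of -0.49 (adjusted p = 0.340) and -0.09 (adjusted p = 0.880) with 12 libraries, and -0.63 (adjusted p = 0.131) and -0.27 (adjusted p = 0.157) without control 5.

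Markers of neighbouring cell types were measured in the same libraries. Of 10 pericyte markers 1 rose, *Cspg4* (NG2), from 46.5 ± 12.9 to 172 ± 30.3 normalized CPM (log2 fold change 1.89, edgeR adjusted p = 2.87e-05, and 2.03 without control 5), without overlap. Of all genes 2.78% rose and 3.83% had separate groups with 12 libraries, and 3.69% and 5.44% with 11. The other 9 had no call, *Rgs5* at 0.21 (adjusted p = 0.292) and *Mcam* at -0.47 (adjusted p = 0.448) included, and the median of the list was 0.06. Without control 5, which held 302 normalized CPM of *Mcam*, *Mcam* was at -0.13 (adjusted p = 0.803), *Rgs5* at 0.22 and the median at 0.02. The summed pericyte markers were 560 to 899 in control and 754 to 896 in iNICD libraries. Fibroblast (12 genes), mesothelial (10), endothelial (10) and immune markers (9 tested) held 0 called genes in edgeR with either set, beside 4.12% of all genes called with 12 libraries and 5.95% with 11. In the same order, 1, 1, 1 and 0 were at an unadjusted p under 0.05 with 12 libraries and 0, 2, 1 and 0 with 11, beside 17.4% and 19.4% of all genes. DESeq2 called 1 mesothelial and 1 endothelial marker lower with 12 libraries, and 1 mesothelial marker with 11, beside 7.84% and 9.82% of all genes called in either direction. All 10 mesothelial markers had negative values in either set, with medians of -0.30 and -0.28, beside -0.01 and -0.00034 over all genes tested. Their mean log2 deviation ran from -0.18 to 0.35 in the controls and from -0.74 (iNICD 4) to 0.22 (iNICD 2) in iNICD libraries. Of endothelial markers, 9 of 10 were negative with 12 libraries and all 10 with 11 (medians -0.20 and -0.09). Of fibroblast markers 4 and 5 of 12 were negative (medians 0.04 and 0.08), and of immune markers 3 and 2 of 9 (0.06 and 0.10). Genes of a list share their libraries, so their signs are not separate observations. Of 10 cardiomyocyte markers 4 fell in either set, *Myl4*, *Sln*, *Tnnt2* and *Myl7* (log2 fold changes of -0.75, -0.64, -0.44 and -0.54, and -0.73, -0.71, -0.46 and -0.58 without control 5), while 1.34% of all genes fell with 12 libraries and 2.26% with 11. Of the Notch list, 5 of 6 genes rose in either set, *Notch1*, *Nrarp*, *Hes1*, *Hey1* and *Heyl*, beside 2.78% and 3.69% of all genes.

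Control 5 was also at the upper end for endothelial markers, with a sum of 1654 normalized CPM against 1155 to 1348 in the other controls, for pericyte markers, with 899 against 560 to 807, and for the wider contractile list, with 32879 against 11955 to 20584. For fibroblast markers its sum was the lowest of the controls, 7299 against up to 9869. The mean log2 deviation of these 12 markers was 0.13 in control 5, within -0.28 to 0.20 over the controls. For pericyte markers the mean log2 deviation was -0.0017 in control 5 and 0.22 in control 2. The place of control 5 for both lists thus depends on the measure. Its cardiomyocyte sum was 92722 against 74854 to 81365, of which *Actc1* made up 21932. None of the smooth muscle genes was at 0 in any library. The part of these lists in the levels of the contractile genes was not tested.

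The sexes were compared separately because control 5 was 1 of only 2 male controls. Among females the log2 fold changes were -0.17 for *Acta2*, -0.56 for *Tagln*, -0.40 for *Cnn1*, -0.51 for *Myl9*, -0.28 for *Myh11*, -0.22 for *Mylk*, -0.24 for *Lmod1*, 0.09 for *Smtn* and 0.27 for *Myocd*. Among males they were -0.35, -1.01, -1.17, -0.93, 0.20, -0.03, 0.31, 0.56 and 0.51 in the same order. *Myh11* and *Lmod1* thus had opposite signs in the sexes, with iNICD 4 and 5 at the upper end among the males. None of these values passed the threshold in edgeR, which called 424 genes among females and 9 among males, and the difference between the sexes was not tested.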

How the data were processed

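RNA of whole LA tissue was depleted of ribosomal RNA and sequenced by the authors, and they deposited raw read counts per gene name, without normalization, with a length in bases per name. The submitters' processing notes name cutadapt, STAR 2.4.2a, featureCounts of Subread, edgeR and mm10. The Supplemental Methods also describe a route with TopHat2 and HTSeq, and the route behind the table was not settled here. In the featureCounts route of these methods a read counted only if it aligned at a single place and to a single gene, so reads common to actin paralogs would be left out there.

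Group and replicate came from the sample titles, sex from the descriptions, which exchange the numbers of 2 controls. No 2 libraries of a group were copies (lowest chi-square per gene 16.7). A gene was tested where 6 or more libraries (5 without control 5) had over 1 CPM, with edgeR 4.0.16 in R 4.3.3 (TMM, quasi-likelihood, two-sided, Benjamini-Hochberg over all tested genes, threshold 0.05). Standard errors come from the F statistic, and intervals from its degrees of freedom. Normalized CPM are counts over the TMM-adjusted total of the 12 libraries, and values are means with SD. Correlations used log2 CPM with a prior count of 2. Permutation tests were exact (924 arrangements, 462 without control 5), so the design can reach p under 0.05. The quasi-likelihood test and DESeq2, both without covariates, were checked on simulated counts, and the other tests were not.

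The 10 genes and all lists were chosen with earlier results of these data known. Named were the 10 genes, up to 5 called genes each way of a list by lowest p and, where fewer than 3 were called, up to 3 with the largest absolute log2 fold change, their paralogs, the 5 genes most like the members' mean, and *Notch1*. Of the marker lists without a call, counts, medians or summed levels are given and no gene is named. 3 listed names were matched through RefSeq synonyms. Gene positions are from GENCODE M21 (GRCm38), promoters from RefSeq. Alternatives were DESeq2 1.42.0, edgeR's exact test, other normalizations and filters, sex as covariate, each sex alone, a replicate block, and each library left out. RA libraries and protein sequences were not used here.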

Additional observations from a re-analysis of the deposited data

Results flagged for a closer look

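Dixon's ratio was applied to the 10 genes in both groups of 6 libraries, 20 groups in all, and 2 had a value farther from the rest than its 95% critical value allows. Chance gives this for about 1 in 20 groups. *Cnn1* was at 133 normalized CPM in iNICD 5, and the next iNICD library was at 58.1. *Mylk* was at 36.7 normalized CPM in control 5, and the next control was at 29. Control 5 was singled out beforehand for its high smooth muscle markers, *Mylk* among them, so this value restates that choice and the chance rate does not apply to it. Control 5 for *Cnn1* and *Tagln* did not meet this criterion, and the next control there was control 2.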

How the results depend on the processing

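The count of members lower in iNICD was 0 under all alternatives, and the count higher was 0 except for 1 (*Myocd*) with DESeq2 (adjusted p = 0.0480) and 1 with the title number as a replicate block (adjusted p = 0.0496), both with 12 libraries. With the description number as block it was 0. Same-numbered libraries correlated between -0.153 and 0.372, over 0.1 in 4 of 6 pairs under either numbering, and 5 of 12 were closest to their own title number. Since not all pairs were over 0.1 and the labels name no shared litter or batch, the numbers were not treated as pairs. The block calls 468 (title) or 421 (description) genes in place of 558.

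With 12 libraries, signs turned for *Myh11* with sex as a covariate (-0.080) and in females (-0.28), for *Lmod1* in the same settings (-0.0095 and -0.24), and for *Cnn1* with either block (0.034 and 0.23). Leaving out 1 library gave -0.090 to 0.17 for *Myh11*, -1.42 to 0.28 for *Cnn1*, -0.068 to 0.13 for *Lmod1* and -0.15 to 0.013 for *Mylk*. Without control 5, signs turned with sex as a covariate for *Acta2* (0.0093), *Lmod1* (-0.030) and *Mylk* (-0.070), with the title block for *Lmod1* (-0.049) and *Mylk* (-0.066), and for *Mylk* with the description block (-0.071) and upper-quartile scaling (-0.0060). Leaving out 1 further library gave -0.27 to 0.15 for *Acta2*, -0.28 to 0.24 for *Tagln*, -0.48 to 1.83 for *Cnn1*, -0.043 to 0.16 for *Lmod1*, -0.060 to 0.080 for *Mylk* and -0.46 to 0.071 for *Myl9*. The cause was not tested. *Myocd* and *Smtn* stayed positive in all fits.

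*Actg2* entered only fits with a lower or no filter (-0.32 with either, adjusted p = 0.744 and 0.745) and the male libraries (-0.05), and was at -0.08 in the first 2 without control 5. Starting from 12 libraries, genes called overall ranged from 9 (males) to 1059 (DESeq2), and from 375 to 812 with 1 library left out. Without control 5, 812 were called, up to 989 with a further library left out and 1340 with DESeq2. At 54 to 109 reads for *Lmod1* and 8 to 29 for *Actg2*, counting error limits both.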
